A study of Mus musculus with 32 samples.

Results

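The cytosolic ribosomal protein genes encode the proteins of the ribosome that works in the cytoplasm. They were taken by symbol as protein-coding genes named Rpl or Rps followed by a digit, with Rpsa, Rplp0, Rplp1 and Rplp2, and without the Rps6k kinases and the pseudogenes ending in -ps. Of 86 such genes, 83 reached at least 10 counts in at least 4 libraries and are described here, out of 54146 genes in the count table. They comprise 43 large-subunit genes, 31 small-subunit genes, 3 genes of the ribosomal stalk and 5 paralogs, Rpl3l, Rpl7l1, Rpl22l1, Rps27l and Rps27rt. The remaining member, Rps19bp1, fits the naming rule but encodes a protein that binds Rps19 and is not a ribosome subunit.

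Male C57BL/6J mice, 12 weeks old, supplied the RNA. Before the session each received, intraperitoneally, either 30 mg/kg of CI-994, which blocks class I histone deacetylases (HDACi below), or the vehicle of DMSO, Kolliphor and saline. After 1 h the mouse went through contextual fear conditioning (CFC) with 2 foot shocks of 0.2 mA, or spent the same time in the chamber without shock (context). Hippocampus or striatum of 1 hemisphere was taken 1 h after the session. With 4 biological replicates in each of 8 groups (vehicle context, vehicle CFC, HDACi context and HDACi CFC in each region) there were 32 poly(A)-selected libraries. All mice of a cage had the same behavioural protocol, so a cage effect and the behaviour cannot be told apart, and the labels do not say which hippocampus and striatum came from 1 mouse.

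A ribosome is built from ribosomal RNA, transcribed mainly by RNA polymerase I in the nucleolus, and from the ribosomal proteins, whose genes are transcribed by RNA polymerase II. A large set of assembly factors processes the RNA and fits the proteins onto it, and most of these factors leave before the subunit is used. Most ribosomal protein mRNAs begin with a C followed by a run of pyrimidines, the terminal oligopyrimidine motif, through which the mTOR pathway controls their translation. In neurons, ribosomal protein mRNAs are also found in dendrites and axons. Transcript counts as measured here report mRNA level, not translation and not the number of ribosomes.

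The following 5 stretches cover 80 bases before to 20 bases after the RefSeq start site (GRCm38.p6) of the genes whose levels the comparisons between regions and drug groups turn on, with the longest C and T run that lies near the start in capitals. Rpl31 (chr1:39367771-39367870, plus strand) and Rps27 (chr3:90213629-90213728, minus strand) were lower in hippocampus. Rpl22 (chr4:152325646-152325745, plus strand) and Rps15a (chr7:118116128-118116227, minus strand) were higher there. Rpl7a (chr2:26910727-26910826, plus strand) was called higher under HDACi in striatum of context mice, a call that depended on the scaling.
Rpl31: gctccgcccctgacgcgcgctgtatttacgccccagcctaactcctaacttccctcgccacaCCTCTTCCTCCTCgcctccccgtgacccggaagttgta
Rps27: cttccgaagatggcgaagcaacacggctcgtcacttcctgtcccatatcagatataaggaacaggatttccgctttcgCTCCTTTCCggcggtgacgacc
Rpl22: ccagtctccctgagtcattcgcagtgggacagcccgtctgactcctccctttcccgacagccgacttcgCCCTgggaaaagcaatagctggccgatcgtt
Rps15a: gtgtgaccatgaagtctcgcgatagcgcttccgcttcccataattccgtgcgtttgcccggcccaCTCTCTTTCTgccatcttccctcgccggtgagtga
Rpl7a: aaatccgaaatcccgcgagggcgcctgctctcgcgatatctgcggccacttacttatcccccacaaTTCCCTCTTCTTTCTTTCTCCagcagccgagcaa
The run is 13 bases long in Rpl31, 9 in Rps27, 10 in Rps15a and 21 in Rpl7a, while that of Rpl22 has 4 bases. The runs of Rps27 and Rpl7a cover the annotated start, while those of Rpl31, Rps15a and Rpl22 end before it. The capitals therefore do not show that an mRNA begins with the run.

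For contrast, 2 ribosome assembly genes that fell under HDACi in striatum are shown over the same window. Riok1 (chr13:38036909-38037008, plus strand) encodes a kinase of small-subunit maturation, and Noc3l (chr19:38819218-38819317, minus strand) a nucleolar factor of large-subunit assembly.
Riok1: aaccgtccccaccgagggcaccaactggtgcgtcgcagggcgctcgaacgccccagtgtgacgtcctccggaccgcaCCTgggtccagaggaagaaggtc
Noc3l: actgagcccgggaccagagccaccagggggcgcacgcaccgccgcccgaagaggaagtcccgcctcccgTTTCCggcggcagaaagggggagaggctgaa
Their longest runs near the start have 3 and 5 bases.

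Promoter windows of 300 bases (250 before to 50 after the start) were found for 63 of the 83 genes, with 75 windows in all. A run of at least 8 pyrimidines reaching within 10 bases of the start was present in 40.0% of these windows, in 13.7% of 20141 windows of all protein-coding genes, and in 5.17% of 58 windows of ribosome assembly factors. The run was read on the strand of the gene, and the 6 strings named next were searched on both strands. The 7-base string CTCTTTC, which can lie inside such a run, was found in 28% of the ribosomal protein windows and 7.83% of all windows. CCGGAAG, the core of ETS-type sites, was present in 34.7% of the ribosomal protein windows and in 11.9% of all windows, but also in 34.5% of the assembly factor windows. The mitochondrial ribosomal protein windows held it in 34.7% as well. AAGATGG, the core of the YY1 site, was in 16% of the ribosomal protein windows and 17.3% of the mitochondrial ribosomal protein windows, against 6.3% of all windows. CACGTG, the E-box bound by MYC, was in 10.7% of the ribosomal protein windows, 17.2% of the assembly factor windows and 8.03% of all windows. The GC box GGGCGG was in 60.0% against 47.8% of all, and the TATA box TATAAA in 9.33% against 12.1%. These are matches of letters in a window and describe the promoters only.

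Ribosomal protein mRNAs were abundant in both regions. Levels are given as CPM, the count of a gene scaled to the sum of all gene counts of its library, which does not correct for transcript length. Over the 32 libraries the median level was 107.7 CPM for the large-subunit genes and 124.2 CPM for the small-subunit genes, compared with 17.9 CPM for the 15164 protein-coding genes that passed the same count minimum. The highest levels were those of Rpl4, a protein lining the exit tunnel (median 438.8 CPM), Rpl3, near the peptidyl transferase centre (408.7 CPM), and Rpsa, also known as the laminin receptor (280.7 CPM). On the scale of CPM per kilobase of transcript, Rpl9 (349.3), Rps27 (312.0) and Rpl3 (302.5) stood highest. Of the 77 subunit and stalk genes, 76 had at least 10 counts in every library.

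Low levels were seen for few subunit genes. Rpl24 had a median of 0.632 CPM, Rpl13a 6.52 CPM and Rpl36 10.6 CPM, against a median of 119.1 CPM for the 72 subunit genes that overlap no other gene on their strand. Rpl24 and Rpl13a each overlap another annotated gene on the same strand (Gm28037 and Gm45713), and the 5 subunit genes with such an overlap had a median of 66.0 CPM. How reads that fall in 2 genes were counted is not given in the sources used here, so the levels of Rpl24 and Rpl13a are uncertain. The 294 rows of ribosomal protein pseudogenes ending in -ps held 4.79 to 5.52% as many counts as the 83 genes, and reads shared with such near-identical copies could have been lost from the parent genes.

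Genes at the edge of the count minimum were the muscle paralog Rpl3l, with a median of 0.277 CPM and at least 10 counts in 15 libraries, and Rpl24, with at least 10 counts in 31 libraries. Below it stood Rpl36al, with at most 9 counts in a library, and Rpl39l, with at most 7. The testis paralog Rpl10l had 0 counts in every library.

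**Figure D1:**
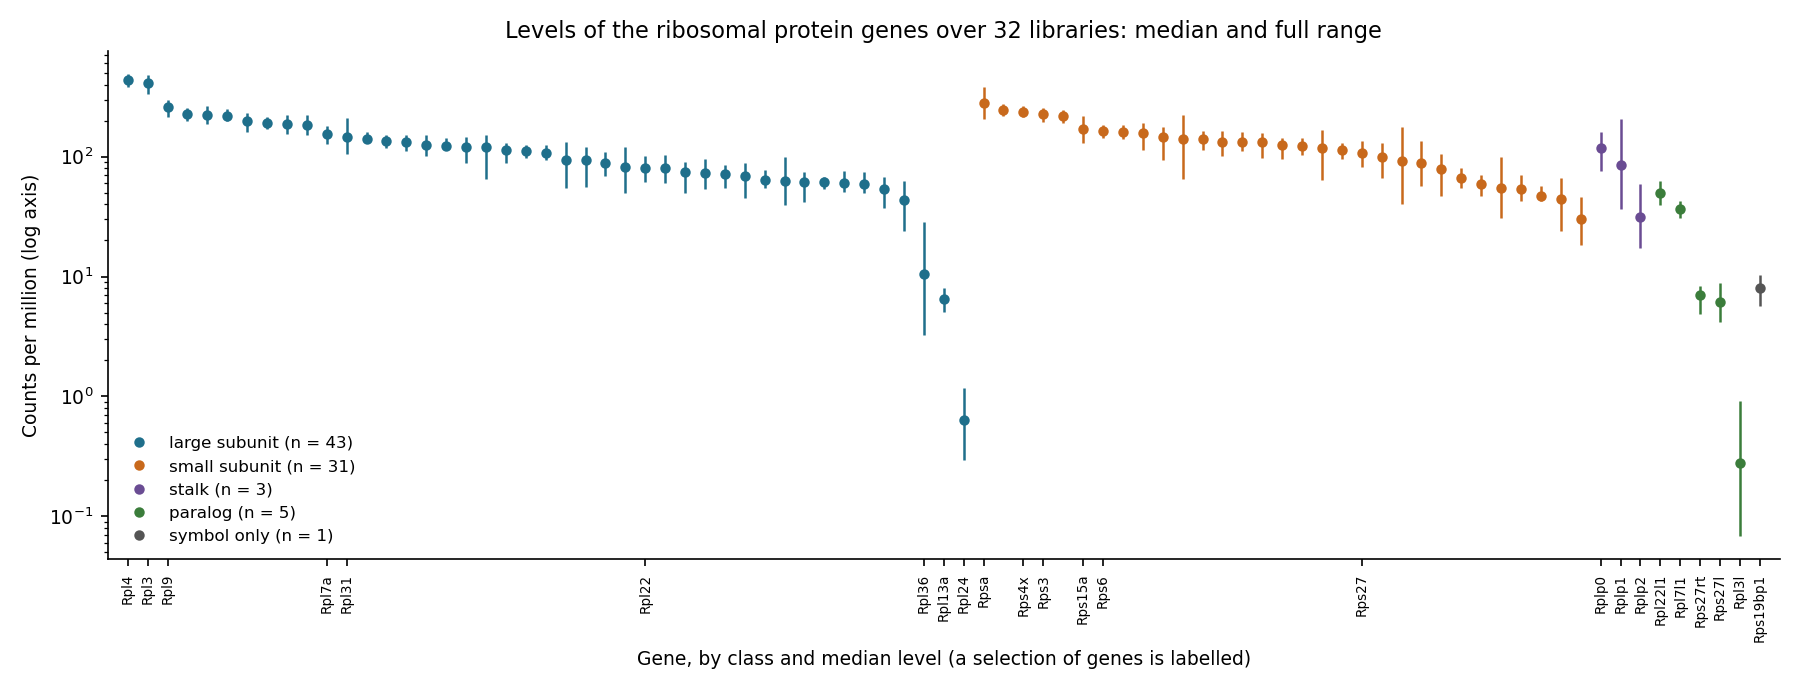
Each point is the median and each vertical line the full range of 1 ribosomal protein gene over the 32 libraries, in CPM on a log axis, ordered by class and level, with a selection of genes labelled. Subunit gene medians other than those of Rpl24 (0.632) and Rpl13a (6.52) lie between 10.6 and 438.8 CPM, and Rpl36 has a wide range (3.27 to 28.5).

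The genes differed in how much they varied. The ratio of the highest to the lowest library was 1.23 for Rps4x, the X-linked small-subunit protein, 1.28 for Rps6, the substrate of the S6 kinases, and 1.29 for Rpl4. It was 8.74 for Rpl36 and 5.59 for Rplp1, one of the acidic stalk proteins that recruit elongation factors. The deviations of the genes from their group means were positively correlated for some pairs and negatively for others. Over the 16 libraries of hippocampus the median correlation between pairs of ribosomal protein genes was 0.46, compared with 0.272 for nuclear subunits of oxidative phosphorylation and 0.0802 for mitochondrial ribosomal proteins. The correlation was positive for 62.4% of the ribosomal protein pairs, 61.9% of the oxidative phosphorylation pairs and 54.3% of the mitochondrial ribosomal protein pairs. In striatum the medians were 0.358, 0.198 and 0.0787, and 60.6, 59.4 and 56.6% of the pairs were positive. All pairs share the libraries and their depth, and the correlations are given as a description.

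Together the 83 genes took between 0.831 and 1.08% of the counts of a library. In hippocampus the share was 0.920% ± 0.0949 in vehicle context, 0.942% ± 0.0896 in vehicle CFC, 0.929% ± 0.0657 in HDACi context and 0.947% ± 0.0418 in HDACi CFC (mean ± SD, n = 4 each). In striatum the corresponding shares were 0.983% ± 0.0616, 0.992% ± 0.0783, 0.979% ± 0.0387 and 1.033% ± 0.0501. The 4 groups of a region overlapped.

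**Figure D2:**
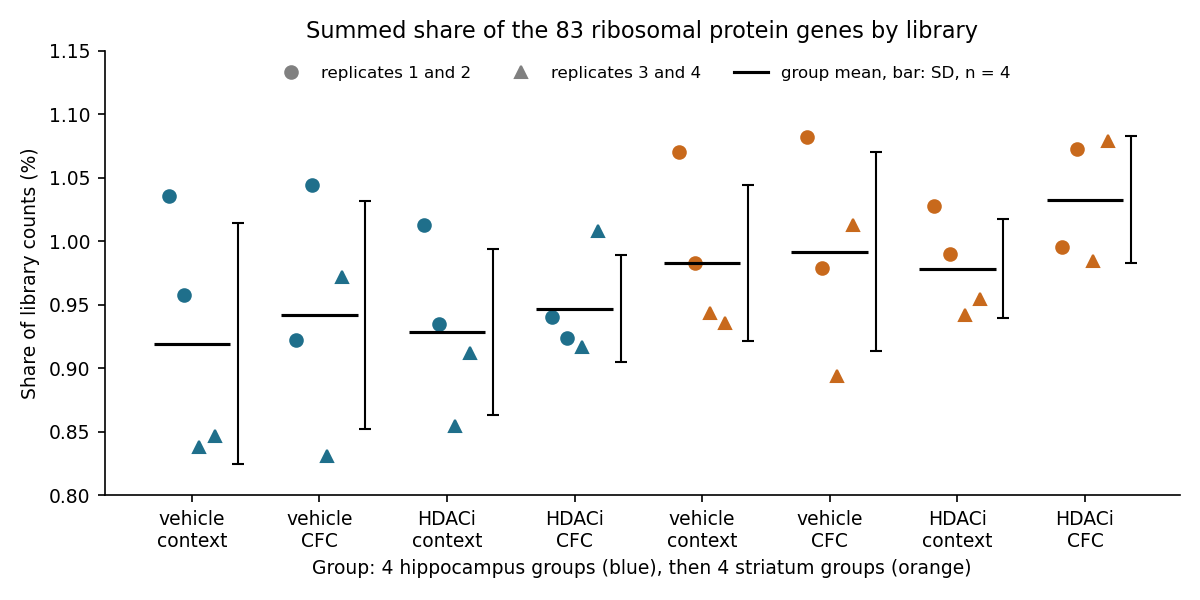
The summed share of the 83 genes, in percent of the counts of each library, is plotted for the 8 groups, with circles for replicates 1 and 2, triangles for replicates 3 and 4, a line at the group mean and a bar for the SD (n = 4). Groups of 1 region overlap, and striatum lies slightly above hippocampus, with a mean over 16 libraries of 0.997% against 0.934%.

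The first question was whether HDAC inhibition changed ribosomal protein mRNAs. In hippocampus no ribosomal protein gene passed the test (edgeR's quasi-likelihood test, adjusted p under 0.05 over all genes). In striatum 12 rose after CFC and 1 after context, by 1.12- to 1.17-fold. None fell. Of all genes 7.42 and 6.55% were called higher in hippocampus after CFC and context, and 9.57 and 10.3% in striatum. The 12 calls depended on the fit. They became 0 with library size scaling alone, and 0 to 9 without 1 library. A term for replicates 1 and 2 against 3 and 4 gave more calls. In both regions many ribosome assembly factors and RNA polymerase I genes fell. In bulk tissue a change in the number of cells of a type and a change in RNA per cell cannot be told apart.

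In hippocampus after CFC, 0 of 82 tested ribosomal protein genes were called, beside 20.8% of 18261 genes overall (7.42% higher and 13.4% lower). Without adjustment 1 gene had p under 0.05. The lowest adjusted p was that of Rpl24 (log2 fold change 0.65, SE 0.26, adjusted p = 0.0884), whose level of 0.695, 0.810, 1.17 and 1.16 CPM in the 4 HDACi CFC libraries did not overlap the 0.575 to 0.726 CPM of vehicle CFC except in replicate 1. Choroid plexus markers moved with this comparison: 14 of 14 were called higher under HDACi, with a summed level of 222 to 9896 CPM in HDACi CFC against 179 to 327 CPM in vehicle CFC. The high values came from replicates 2 and 4 of HDACi CFC, and without these libraries 0 ribosomal protein genes were called.

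In hippocampus after context, 0 of 82 were called, beside 19.8% of all genes (6.55% higher and 13.2% lower), and 4 had an unadjusted p under 0.05. Rpl4 was nearest to the threshold (log2 fold change 0.15, SE 0.05, adjusted p = 0.052). Same-numbered libraries of these 2 groups deviated together, and with the replicate number as a block 7 genes were called, all higher: Rpl17 (0.16, adjusted p = 0.0333), Rps15a (0.16, 0.0184), Rpl4 (0.15, 0.0232), Rpl9 (0.15, 0.0293), Rps4x (0.14, 0.0292), Rpl5 (0.13, 0.0439) and Rpl23 (0.13, 0.0429), each as log2 fold change. These 7 of 82 genes stand beside 29.0% of all genes called under the block, 11.0% higher and 18.1% lower. Rpl17 sits near the exit of the tunnel through which the new protein leaves, and Rpl5 carries the small ribosomal RNA of the large subunit.

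In striatum after CFC, 12 of 83 genes rose and none fell, which is 14.5% beside 24.2% of 18256 genes called overall and 9.57% called higher (14.6% lower). They were the large-subunit genes Rpl3, Rpl4, Rpl10, Rpl14, Rpl15, Rpl17, Rpl21, Rpl26 and Rpl34 and the small-subunit genes Rps3, Rps3a1 and Rps4x. Rpl17 stood at 186.7, 170.9, 187.9 and 201.3 CPM in vehicle CFC and at 194.3, 202.2, 204.1 and 225.0 CPM in HDACi CFC. Only replicate 4 of vehicle CFC reached into the range of the drug group. The log2 fold change of Rpl17 was 0.23 (SE 0.07, adjusted p = 0.028).

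Rps3, which helps form the channel where mRNA enters the small subunit, had the lowest adjusted p (log2 fold change 0.19, SE 0.06, adjusted p = 0.0191). Its levels were 232.7, 214.3, 211.5 and 239.9 CPM in vehicle CFC and 226.4, 253.3, 234.2 and 256.1 CPM in HDACi CFC. The 2 groups overlapped for Rps3, with replicates 1 and 4 of vehicle CFC inside the range of the drug group. Rpl3 (0.21, adjusted p = 0.0418), Rpl21 (0.20, adjusted p = 0.0409), Rps4x (0.20, adjusted p = 0.0349) and Rpl34 (0.20, adjusted p = 0.0332) had the next largest log2 fold changes. Rps6 reached 0.15 (SE 0.05) with adjusted p = 0.0572. The fold changes use TMM scaling, which differs from CPM: the scaling factors averaged 1.02 to 1.04 in the vehicle groups and 0.952 to 0.983 in the HDACi groups, so a fold change is larger than the ratio of the CPM means.

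The 12 calls depended on single libraries and on how the counts were modelled. Leaving out replicate 2 of vehicle CFC gave 0 calls, and leaving out replicate 4, 2 or 3 of HDACi CFC gave 1, 3 and 6 calls. Replicate 3 of vehicle CFC and replicate 2 of HDACi CFC stood lowest for the mean of the medium spiny neuron markers (8.09 and 8.07 log2 CPM, against at least 8.37 in the other libraries of the 2 groups), and without both 3 genes were called. Scaling to library size alone, testing without a filter on low counts and fitting only the 2 groups compared each gave 0 calls, whereas a term for replicates 1 and 2 against 3 and 4 gave 33, all higher.

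In striatum after context, 1 of 83 genes rose, beside 24.8% of 18256 genes called (10.3% higher and 14.5% lower), and 13 had an unadjusted p under 0.05. This was Rpl7a, a large-subunit protein whose gene also hosts small nucleolar RNAs, with 155.0, 155.5, 147.7 and 139.4 CPM in vehicle context and 167.1, 167.0, 150.8 and 147.9 CPM in HDACi context. The ranges of the 2 groups overlapped, with replicates 3 and 4 of HDACi context inside the vehicle range. The log2 fold change was 0.20 (SE 0.06, adjusted p = 0.031), and the call was kept in 2 of 8 fits that each left out 1 library, with adjusted p between 0.0332 and 0.0977. With library size alone the log2 fold change of Rpl7a was 0.08 (adjusted p = 0.442), and with offsets for GC content and length it was 0.12 (adjusted p = 0.13).

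Below the threshold, the log2 fold changes of the ribosomal protein genes were small and mostly on 1 side of zero under TMM scaling. They were positive for 74 of 82 genes in hippocampus after CFC and 72 of 82 after context, and for 74 and 68 of 83 genes in striatum, while 51.7 to 54.3% of all genes were positive. The medians were 0.07, 0.08, 0.14 and 0.10 in that order, against 0.01, 0.01, 0.03 and 0.03 over all genes. With scaling to library size alone the medians were 0.01, 0.00, 0.06 and -0.01, so in striatum after context the side changed. That scaling moved the median of all genes as well, by -0.06, -0.08, -0.08 and -0.11. Relative to the median of all genes the ribosomal protein genes stood at 0.06, 0.07, 0.11 and 0.08. A change of scaling shifts all genes alike, so these values are nearly the same under either scaling by construction. Without 1 library the medians under TMM scaling ran from 0.003 to 0.14 and from 0.02 to 0.15 in hippocampus after CFC and context. In striatum they ran from 0.09 to 0.18 and from 0.06 to 0.11. Of the 82 genes tested in both regions, 58 had a positive log2 fold change in all 4 comparisons and 3 a negative one. The 2 comparisons of a region used separate libraries.

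By role, the large-subunit genes had median log2 fold changes of 0.08, 0.08, 0.15 and 0.12 in the order hippocampus CFC, hippocampus context, striatum CFC and striatum context. The small-subunit genes had 0.07, 0.09, 0.14 and 0.11. The 3 stalk genes Rplp0, Rplp1 and Rplp2 had 0.02, 0.03, -0.06 and -0.15, with standard errors of 0.19 to 0.41, and none of them was called. For Rplp1 in hippocampus after CFC the log2 fold change was 0.06 with an SE of 0.41. A change of the size seen for Rps3 was therefore not detectable for the stalk genes.

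Many genes that make the ribosome without staying in it fell. Of 62 ribosome assembly factors, 38 fell in hippocampus after CFC, 34 after context, 42 in striatum after CFC and 43 after context, and none rose. The share called lower among all genes was 13.4, 13.2, 14.6 and 14.5%. Median log2 fold changes were -0.39, -0.36, -0.40 and -0.39, and 32 of the 62 fell in all 4 comparisons. Pwp1, a nucleolar factor of ribosome biogenesis, fell by 1.01 after CFC and by 1.06 after context in hippocampus (adjusted p = 1.85e-06 and 1.43e-06). Rrp1b, a nucleolar protein, fell by 0.93 and 1.09 there (adjusted p = 2.08e-06 and 7.11e-07). In striatum Riok1 fell by 0.98 and 0.99 (adjusted p = 8.69e-07 and 7.07e-07) and Noc3l by 0.86 and 0.85 (adjusted p = 1.47e-06 and 1.3e-06).

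Of 20 genes of RNA polymerase I and ribosomal RNA transcription, 12, 10, 13 and 12 fell in the same order and none rose, with medians of -0.32, -0.29, -0.39 and -0.36. Twistnb, a subunit of RNA polymerase I, had log2 fold changes of -0.93, -0.74, -0.88 and -0.92. Ttf1, which ends transcription by that polymerase, fell by 0.69 in hippocampus after CFC. Polr1c, a subunit shared with RNA polymerase III, fell by 0.77 in hippocampus after context. Of 77 mitochondrial ribosomal protein genes, 13, 9, 18 and 15 fell and 0, 0, 0 and 1 rose, with medians of -0.11, -0.12, -0.14 and -0.12. Of all genes 13.4, 13.2, 14.6 and 14.5% were called lower, so the mitochondrial counts in hippocampus are near that share. Mrps31 of the mitochondrial small subunit fell in all 4, with log2 fold changes of -0.54, -0.56, -0.67 and -0.49. Fau and Rack1, ribosomal proteins outside the naming rule, were called in none of the 4 comparisons.

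Cell-type markers also moved with the drug. Of 9 oligodendrocyte precursor markers 7, 7, 7 and 5 rose, and the summed level was 406 to 524 CPM in hippocampus HDACi context against 313 to 386 CPM in vehicle context. In striatum the sums were 542 to 639 CPM in HDACi CFC and 350 to 518 CPM in vehicle CFC. Of 12 astrocyte markers 2, 3, 5 and 6 rose, with sums of 5645 to 5819 CPM in striatum HDACi CFC and 5081 to 5585 CPM in vehicle CFC. No marker of these lists was at 0 in all libraries of a group. The part of these markers in the ribosomal protein values was not tested.

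**Figure D3:**
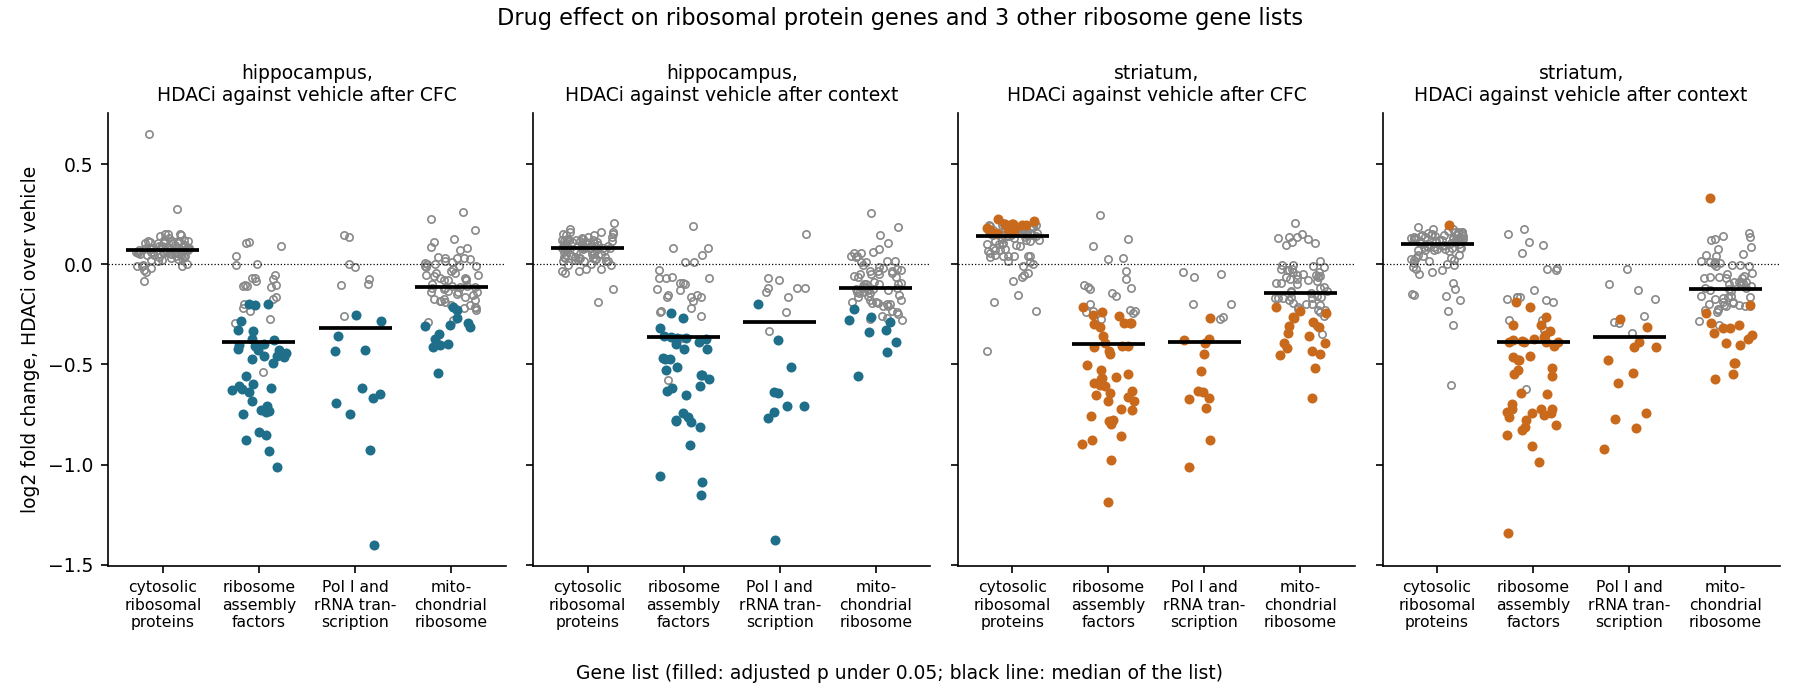
Log2 fold changes of HDACi over vehicle are plotted for each gene of 4 lists in the 4 drug comparisons, filled where adjusted p was under 0.05, with a black line at the list median. Ribosomal protein genes sit just above zero (medians 0.07 to 0.14 with TMM scaling, -0.01 to 0.06 with library size alone), while assembly factors (-0.40 to -0.36) and RNA polymerase I genes (-0.39 to -0.29) lie below it.

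The difference between the regions in the drug effect was tested directly. None of the 83 genes was called after CFC or after context, beside 0.266% and 0.62% of 19198 genes (0.141% higher and 0.125% lower after CFC, and 0.286% and 0.333% after context). Unadjusted p was under 0.05 for 1 gene, Rpl24, after CFC and for 0 genes after context. The 12 calls in striatum after CFC and the 0 calls in hippocampus are thus not shown to differ.

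The second question was whether fear conditioning, compared with the chamber alone, changed these mRNAs 1 h later. No ribosomal protein gene was called in either region under vehicle or under HDACi, and 0% of all genes were called in the 4 comparisons. Without adjustment 0 ribosomal protein genes had p under 0.05 in any of them, while 1.03 to 5.41% of all genes did. DESeq2's Wald test called 0 ribosomal protein genes as well. The median log2 fold changes of CFC over context were 0.04 under vehicle and 0.03 under HDACi in hippocampus, and 0.00 and 0.03 in striatum. The standard error of a single gene had a median of 0.11 in hippocampus and 0.09 in striatum.

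The 3 stalk genes had larger median log2 fold changes of CFC over context than the large- or small-subunit genes, 0.19 and 0.23 in hippocampus and 0.16 and 0.25 in striatum. Each stalk gene's log2 fold change was below or near its standard error, with Rplp0 in striatum under HDACi the closest (0.21, SE 0.19). Rplp1 illustrates the spread. It stood at 131.0, 85.0, 42.3 and 37.5 CPM in vehicle context and at 90.4, 133.5, 47.5 and 66.8 CPM in vehicle CFC of hippocampus, so that the 2 groups overlapped almost fully. The drug by behaviour interaction was called for 0 ribosomal protein genes in each region, 0% of all genes, with 0 unadjusted, and had medians of -0.02 in hippocampus and 0.05 in striatum.

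The third comparison set hippocampus against striatum in mice given vehicle and context. Among the genes that passed the test most were lower in hippocampus, with Rpl31 the clearest among the abundant ones, and 2 genes, Rpl22 and Rps15a, were higher. Of 83 genes, 2 were called higher and 15 lower in hippocampus, 20.5% beside 44.1% of 19198 genes overall. Of all genes 24.2% were higher and 19.9% lower. The median log2 difference was -0.14 against 0.02 over all genes, and 13 of the 83 differences were positive. With library size alone 4 genes were higher and 10 lower. Same-numbered hippocampus and striatum libraries deviated together, and with the replicate number as a block 39 genes were called, 4 higher and 35 lower, beside 51.6% of all genes (27.9% higher and 23.6% lower).

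Rpl31, a large-subunit protein beside the exit of the tunnel, stood at 122.7, 115.4, 109.1 and 108.9 CPM in hippocampus and at 194.6, 183.8, 192.1 and 186.4 CPM in striatum of vehicle context mice. The groups were far apart, and the log2 difference was -0.76 (SE 0.08, adjusted p = 1.16e-09). The separation held in every group: over all 16 libraries of each region the highest hippocampus value was 128.8 CPM and the lowest striatum value 165.8 CPM. The log2 difference was -0.70 in vehicle CFC, -0.82 in HDACi context and -0.77 in HDACi CFC.

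Rps27, a zinc-finger protein of the small subunit, stood at 97.3, 87.8, 96.5 and 97.6 CPM in hippocampus and 114.0, 107.6, 126.7 and 126.1 CPM in striatum. The 2 groups did not overlap, and the log2 difference was -0.35 (SE 0.10, adjusted p = 0.00353). Rpsa had 307.1, 277.7, 210.1 and 215.4 CPM in hippocampus and 360.1, 329.2, 284.1 and 271.7 CPM in striatum. These ranges overlapped, and the log2 difference was -0.33 (SE 0.13, adjusted p = 0.0373). The call of Rpsa was kept in 4 of 8 fits without 1 library, and its adjusted p reached 0.14 without replicate 3 of hippocampus and 0.0694 with library size alone. Rpsa was lower in hippocampus in each of the 4 same-numbered pairs, and with the replicate number as a block the log2 difference was -0.34 (adjusted p = 0.000102).

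Rpl22, a large-subunit protein that also binds other RNAs, was higher in hippocampus, at 93.7, 95.6, 92.5 and 95.6 CPM, than in striatum, at 71.0, 66.5, 73.2 and 73.1 CPM. The groups did not overlap (log2 difference 0.38, SE 0.06, adjusted p = 2.59e-06). Rps15a of the small subunit had 184.6, 184.2, 189.9 and 194.4 CPM in hippocampus and 137.4, 136.8, 149.8 and 153.0 CPM in striatum (log2 difference 0.35, SE 0.07, adjusted p = 0.000217). The remaining genes called lower in hippocampus had log2 differences from -0.32 (Rps23, near the decoding centre) to -0.14 (Rps6), besides the paralogs Rpl3l and Rps27rt. Between them lay Rpl12, Rpl17 and Rpl26, whose calls were kept in all 8 fits that each left out 1 library, and Rpl35a, kept in 5, among others. Rps19, Rpl34, Rps13 and Rps6 were also called lower, but each kept its call in 3 of the 8 fits and lost it with library size alone.

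The same comparison in the other groups gave 7 higher and 9 lower genes in vehicle CFC, 3 and 20 in HDACi context and 4 and 17 in HDACi CFC, beside 45.2, 50.9 and 48.2% of all genes called. Rpl22 and Rps15a were higher in all 4 groups. Rpl12, Rpl26, Rpl31, Rps19, Rps23, Rps27 and Rpsa were lower in all 4. No gene was higher in one group and lower in another, and 51 of the 83 were called in none. Each gene's 4 differences come from separate libraries.

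Cell-type markers separated the regions as well. All 19 medium spiny neuron markers were lower in hippocampus, with summed levels of 694 to 861 CPM against 9443 to 15470 CPM in striatum. Of 17 hippocampal excitatory neuron markers 15 were higher there, with sums of 1459 to 2080 CPM against 339 to 526 CPM. All 10 oligodendrocyte markers were lower in hippocampus (median log2 difference -0.92; sums of 3157 to 4607 CPM against 5921 to 8360 CPM in vehicle context), and 5 of 10 microglia markers were lower. No marker of these lists was at 0 in all libraries of a group. The part of the cell makeup in the ribosomal protein differences was not tested.

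**Figure D4:**
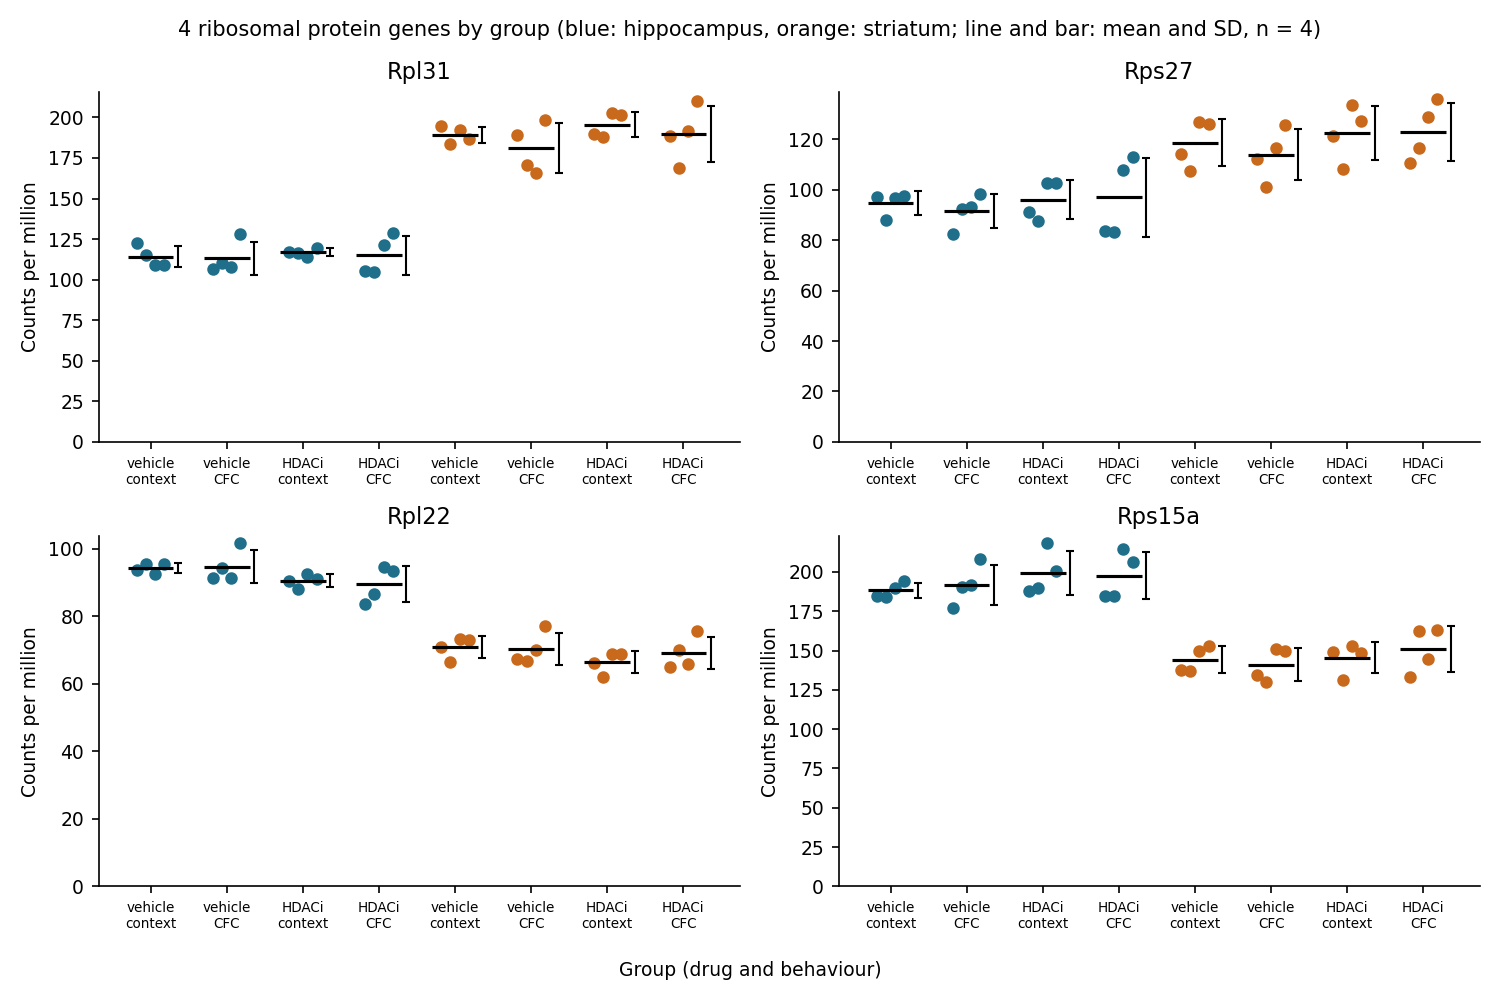
The level of Rpl31, Rps27, Rpl22 and Rps15a is plotted for each library in CPM by group, blue for hippocampus and orange for striatum, with a line at the mean and a bar for the SD (n = 4). Rpl31 lies at 104.7 to 128.8 in hippocampus and 165.8 to 210.3 in striatum, and Rpl22 and Rps15a lie higher in hippocampus.

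The regions also differed in the balance between paralogs of 1 ribosomal protein, given as a ratio of counts without correction for length. Rpl22l1, which can take the place of Rpl22 in the ribosome, had 54.0% as many counts as Rpl22 in hippocampus (median of 16 libraries, range 46.3 to 66.5%) and 70.7% in striatum (63.0 to 79.7%). The level of Rpl22l1 itself did not pass the test between regions (log2 difference 0.07, SE 0.12, adjusted p = 0.666), while Rpl22 did. Rps27l, a p53-responsive paralog of Rps27, had 7.67% of the counts of Rps27 in hippocampus (6.19 to 9.35%) and 4.42% in striatum (3.68 to 6.09%), with no overlap between the regions. The level of Rps27l itself did not pass the test between regions in vehicle context (log2 difference 0.20, adjusted p = 0.15), and was called higher in hippocampus in vehicle CFC (0.32, adjusted p = 0.0201), HDACi context (0.44, adjusted p = 0.00151) and HDACi CFC (0.48, adjusted p = 0.000609).

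The retrogene Rps27rt had 6.64% and 6.51% of the counts of Rps27. It was lower in hippocampus (log2 difference -0.37, SE 0.13, adjusted p = 0.0192), as its parent was. Rpl7l1, a nucleolar relative of Rpl7, had 16.5% of the counts of Rpl7 in hippocampus and 14.9% in striatum. Rpl3l had 0.0463% and 0.107% of the counts of Rpl3 and reached 26 counts in a library at most. Its log2 difference of -1.40 (SE 0.42, adjusted p = 0.00673) rests on 0.341, 0.148, 0.256 and 0.131 CPM in hippocampus against 0.677, 0.671, 0.674 and 0.327 CPM in striatum, where replicate 4 falls below the highest hippocampus value. Rpl36al, Rpl39l and Rpl10l were at or near 0 counts beside their partners Rpl36a, Rpl39 and Rpl10.

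Ribosomal protein genes also differed between replicates 1 and 2 and replicates 3 and 4 of the groups. The labels give no batch for these numbers, and the split was seen in the data, so the counts describe the libraries. With a term for the 2 sets beside the group means, 20 genes were higher and 39 lower in replicates 3 and 4 of hippocampus (82 tested, beside 35.7% of all genes called, 17.9% higher and 17.8% lower), and 19 were higher and 33 lower in striatum (83 tested, beside 20.5%, 7.58% higher and 12.9% lower). In both regions 17 genes were higher and 33 lower, and none was called in opposite directions. Rpl36 had log2 differences of -1.15 in hippocampus and -1.01 in striatum, Rplp1 -1.02 and -0.89, and Rps29, a zinc-finger protein of the small subunit, -0.87 and -0.69.

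The per-library values show this for Rplp1 in striatum, with 175.9, 111.0, 53.6 and 56.2 CPM in vehicle context and 206.0, 138.6, 52.8 and 91.5 CPM in vehicle CFC. Replicates 3 and 4 were below replicates 1 and 2 in both groups. In HDACi context the values were 85.0, 107.1, 58.8 and 61.2 CPM and in HDACi CFC 106.0, 117.3, 83.7 and 97.5 CPM, with a smaller gap.

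Genes that were lower in replicates 3 and 4 had a higher GC content and shorter transcripts. In hippocampus the 39 lower genes had a median GC content of 53.4% and a length of 794 bases, and the 20 higher genes 47.1% and 930 bases. In striatum the medians were 53.8% and 780 bases against 46.8% and 975 bases. The share of counts from ribosomal protein genes averaged 0.971% in replicates 1 and 2 and 0.897% in replicates 3 and 4 of hippocampus, and 1.025% and 0.968% in striatum. In each context group replicates 3 and 4 lay below replicates 1 and 2, but in each CFC group replicate 4 lay above replicate 1 or 2. In HDACi CFC replicates 1, 2 and 4 stood at 0.940, 0.924 and 1.008% in hippocampus and at 0.995, 1.073 and 1.079% in striatum. Counts from mitochondrially encoded genes averaged 5.39% and 6.09% in hippocampus and 7.16% and 8.09% in striatum. With offsets for GC content and length, 8 genes were higher and 33 lower in hippocampus, and 5 higher and 23 lower in striatum. Over all genes the same offsets left 7.54% called in hippocampus (2.44% higher and 5.1% lower) and 2.57% in striatum (0.657% higher and 1.91% lower).

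Each group holds replicates of both sets, and the comparisons were repeated within them. With replicates 1 and 2 alone, and with 3 and 4 alone, 0 ribosomal protein genes were called for the drug in any of the 4 comparisons. Such fits hold fewer libraries than the full one, so the 0 calls cannot tell whether the changes hold within a set. A term for the 2 sets gave 33 calls in striatum after CFC and 17 after context, all higher, beside 30.6 and 31.0% of all genes called (12.7 and 13.6% higher). Between regions 7 genes were called with replicates 1 and 2 and 23 with replicates 3 and 4, beside 32.7 and 32.6% of all genes.

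**Figure D5:**
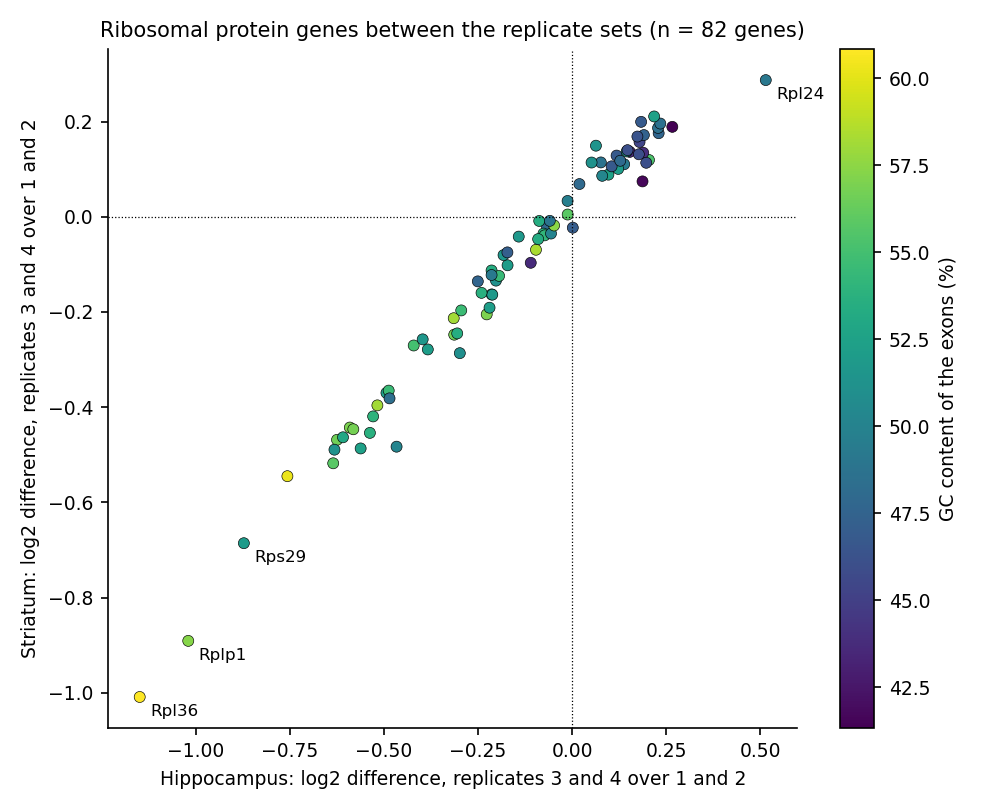
Each point is 1 ribosomal protein gene, placed by its log2 difference of replicates 3 and 4 over 1 and 2 in hippocampus (x axis) and striatum (y axis), and coloured by the GC content of its exons. Genes of high GC content such as Rpl36 (-1.15 and -1.01) lie at the lower left.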

How the data were processed

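The authors deposited 1 table of raw read counts per gene for 32 libraries, for which the submitters' processing notes list STAR 2.6, bcl2fastq 2.20.0, DESeq2 and build mm10. How reads were assigned to genes, and with which strand setting, is not given in the sources used here. Symbols, positions, transcript lengths and exon lengths came from GENCODE M21. Libraries held 26026024 to 36670767 counts, and CPM values were computed over all gene counts. The ribosomal protein genes and the other gene lists were chosen with earlier results of these data known.

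Differences were tested with edgeR 4.0.16 (quasi-likelihood test, TMM scaling, filterByExpr, R 4.3.3) on all 16 libraries of a region with 4 group means, or on all 32 with 8 group means between regions. P-values were two-sided and adjusted by Benjamini-Hochberg over all genes tested, and a gene was called at adjusted p under 0.05. The test recovered known changes in simulated counts. Those counts were drawn independently for each gene and library, without the replicate sets described above. The simulation therefore does not bear on how far the small ribosomal protein calls hold in these libraries.

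Genes were named if they were paralog pairs, stalk genes, Rpsa, Rps6, Rps4x or Rps19bp1, if they were among up to 5 called genes per direction with the largest fold change, or if they had the 3 highest or lowest levels per kilobase or lay next to the count minimum. Of the other lists up to 2 called genes with the smallest adjusted p were named per comparison. Rps3, Rpl36, Rps29, Rpl4, the genes called under the block and the other called genes were added after their values were seen. A few items are not reported here.

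Replicate numbers came from the labels. Same-numbered libraries deviated together from their group means between hippocampus vehicle and HDACi context (correlations of 0.41, 0.20, 0.42 and 0.24 for replicates 1 to 4) and between hippocampus and striatum in vehicle context (0.43, 0.15, 0.23 and 0.34), all over 0.1. In the other drug comparisons at least 1 of the 4 correlations was below 0.1.

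Alternatives were DESeq2 1.42.0 (its size factors and its Wald test), library size scaling, a replicate block, no filter on counts, a term for or only 1 of the replicate sets, offsets for GC content and length, only the groups compared, leaving out single libraries, and leaving out libraries whose choroid plexus markers (over 5 log2 CPM in hippocampus) or medium spiny neuron markers (under 8.2 in striatum) stood apart. Replicates of a group differed by more than counting noise (chi-square of 5.77 to 67.7 per degree of freedom). Promoter windows were RefSeq sequences of GRCm38.p6.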

Additional observations from a re-analysis of the deposited data

Results flagged for a closer look

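Within groups of 4 libraries, 120 tests covered the levels of named ribosomal protein genes and the summed share of the 83 genes. In 5 of them 1 library lay far from the other 3, in each case for the level of a gene. Chance alone gives such a gap in about 1 in 20 groups. Rpl31 stood at 128 CPM in replicate 4 of hippocampus vehicle CFC, with the others at 107 to 110 CPM. Rps27 was low in replicate 2 of hippocampus vehicle context, at 87.8 CPM against 96.5 to 97.6 CPM. Rps3 reached 239 CPM in replicate 4 of hippocampus HDACi CFC, against 212 to 214 CPM. Rps6 was low in striatum in replicate 3 of vehicle CFC (157 CPM against 173 to 174 CPM) and in replicate 1 of HDACi CFC (170 CPM against 178 to 179 CPM).

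The effect of HDACi after context differed between hippocampus and striatum for 3 genes of ribosome production that are not ribosomal proteins, by edgeR's test of the difference itself. As log2 differences of hippocampus minus striatum, Rrp1b had -0.641 (adjusted p = 0.00431), Lsg1, a GTPase of large-subunit export and maturation, -0.5 (adjusted p = 0.0311), and Polr2h, a subunit shared by the RNA polymerases, 0.618 (adjusted p = 0.0443).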

How the results depend on the processing

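No comparison of CFC with context, no interaction and no difference between regions in the drug effect called a ribosomal protein gene under any alternative. In hippocampus after CFC the 0 calls became 2 with a replicate block, with a term for the replicate sets and with offsets for GC content and length, and 3 with block and offsets together. After context they became 2 with DESeq2's size factors or Wald test, 7 with the block or the term, 5 with the offsets and 9 with both. Where the share of all genes is given for the drug, it also rose with the block or the term. The counts in hippocampus alone are therefore no result about the ribosomal protein genes. In striatum after CFC the 12 calls became 0 with library size alone, with no filter, with only replicates 1 and 2, with only 3 and 4 or with only the groups compared, 34 with the replicate block (beside 29.4% of all genes), 33 with the term, and 3 without libraries that stand apart; leaving out 1 library gave 0 to 9. After context the 1 call became 3 with the Wald test, 0 with no filter or with only 1 replicate set, 18 with the block, 17 with the term, 4 with the offsets and 6 with both, and 0 to 1 without 1 library; library size alone called 1 gene, lower instead of higher (Rps19bp1, log2 fold change -0.26, adjusted p = 0.0359). Between regions the 17 calls became 39 with the block, 34 with the term, 44 with block and offsets, and 7 with replicates 1 and 2. In that order 51.6, 50.7, 53.1 and 32.7% of all genes were called in either direction. The ribosomal protein counts in either direction were not above these shares. By direction they differed. With the block 4 of 83 ribosomal protein genes were higher in hippocampus and 35 lower, beside 27.9% of all genes higher and 23.6% lower. The lower calls were thus above the share of all genes under the block, and the higher calls below it. Without 1 library the calls between regions ran from 12 to 25. The 52 calls between replicate sets in striatum became 28 with the offsets. Assembly factors, all called lower, numbered 24 and 23 in hippocampus after CFC with replicates 1 and 2 or 3 and 4 alone, 21 after context with replicates 3 and 4, and 22 in striatum after CFC with replicates 1 and 2; without 1 library they numbered 31 to 36, 30 to 35, 38 to 45 and 40 to 45 in the 4 drug comparisons. RNA polymerase I genes numbered 6 and 7 in hippocampus after CFC with either replicate set, 7 without libraries that stand apart, 6 after context with replicates 3 and 4, and 7 and 6 in striatum after CFC and context with replicates 1 and 2; without 1 library they numbered 9 to 12, 9 to 10, 13 to 14 and 10 to 12. The causes were not tested, other than that fits of 1 replicate set hold fewer samples. In hippocampus after CFC and in striatum at least 1 of the 4 correlations between same-numbered libraries was below 0.1. Of 8 libraries, 5 correlated best with their own number in hippocampus after CFC, 3 in striatum after CFC and 4 after context. That count was 5 in hippocampus after context and 4 between regions in vehicle context, so it does not separate the comparisons. The block changed no call between CFC and context, and no called and named ribosomal protein gene changed direction under an alternative.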

Other observations

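Of 21 translation factors with the same pyrimidine-type mRNA start or a role in elongation, 1 rose in hippocampus after CFC, 2 after context, 5 in striatum after CFC and 3 after context, and 0, 0, 0 and 1 fell under HDACi (edgeR's quasi-likelihood test). The share of all genes called higher in these comparisons was 7.42, 6.55, 9.57 and 10.3%, so the counts in hippocampus are near that share. Tpt1, an abundant mRNA of that type, rose by a log2 fold change of 0.16 in both hippocampus comparisons (adjusted p = 0.036 and 0.0341). Eef1a1, the elongation factor that brings tRNA to the ribosome, rose by 0.20 in striatum after CFC (adjusted p = 0.018), and Naca, of the nascent chain complex, by 0.16 (adjusted p = 0.0281). Eif3l, an initiation factor subunit, fell by 0.20 in striatum after context (adjusted p = 0.0179). These values use TMM scaling, under which rises are larger and falls smaller than in CPM. In striatum, mean CPM in vehicle CFC and HDACi CFC was 2245 and 2429 for Eef1a1, and 132.5 and 139.5 for Naca. For Eif3l it was 60.5 in vehicle context and 48.6 in HDACi context. Whether these calls hold with library size alone was not tested.

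Of 28 genes of the mTOR pathway and of the control of these mRNAs, 5, 6, 8 and 8 fell and 1, 1, 1 and 2 rose, beside 13.4, 13.2, 14.6 and 14.5% of all genes called lower. Myc, a transcription factor that promotes ribosome production, fell by 1.14 in hippocampus after CFC (adjusted p = 0.000335). Tsc1, an inhibitor of mTOR, fell by 0.32 there and by 0.28 in striatum after CFC (adjusted p = 0.0016 and 0.000853). Eif4ebp2, a repressor of cap-dependent translation in brain, fell by 0.32 in hippocampus after context (adjusted p = 0.000455). Yy1, whose site core was counted in the promoters, fell by 0.30 there (adjusted p = 0.000472).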
